A study of Rattus norvegicus with 9 samples.

Results

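The genes described here are 40 genes of fatty acid and triglyceride metabolism, measured in rat pancreatic islets after 30 days of a cafeteria diet or of standard chow. They were chosen by name, as listed genes of fatty acid synthesis, uptake, triglyceride assembly and lipolysis that the array measures. The rule uses no difference between the diets, but the list was drawn up with earlier results of these data known. All 40 were measured, out of 14217 genes. Each gene was read through its brightest probe set that maps to 1 gene, meaning the one with the highest mean over the 9 arrays. Obese Wistar rats fed the high-calorie cafeteria diet (5 arrays) were compared with lean Wistar rats on chow (4 arrays). Islets had been freed from the pancreas with collagenase, and total RNA was hybridised to a 1-colour Affymetrix rat genome array. Neither age, sex, feeding state at sacrifice nor any batch is given in the labels, and whether an array holds 1 animal or several is not stated, so p-values measure only the spread between these arrays. Values are log2 intensities after robust multi-array averaging (RMA), so a difference of 1 is a 2-fold difference, and differences are cafeteria minus chow.

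Fatty acids are built in the cytosol from acetyl-CoA, which comes mainly from citrate exported by mitochondria, and malonyl-CoA and NADPH complete the supply for fatty acid synthase. They are then desaturated, elongated and esterified to glycerol to give triglyceride, which is stored in lipid droplets and released again by lipases. In the beta cell of the islet, glucose raises malonyl-CoA, and it raises lipogenic gene expression through the factor ChREBP, encoded by Mlxipl. Lipolysis supplies lipid signals that augment insulin secretion, and excess stored lipid is associated with poorer beta cell function.

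No member passed the test between the diets. Of the 40 members, 0 had an adjusted p under 0.05 (limma, Benjamini-Hochberg over 31042 probe sets), as had 0 of 14217 genes (0.0%). The smallest adjusted p of any member was 0.844. At an unadjusted p under 0.05 there were 2 members, Fabp5 and Plin3, both lower in cafeteria islets. Over all genes 6.7% reached that level, 3.42% with a higher and 3.28% with a lower value in cafeteria islets, so 2 of 40 is near the background. The difference was above 0 for 21 members and below 0 for 19, against 49.2% of all genes below 0, and its median was 0.0018, against 0.0025 over all genes. Members also differed by no more than other genes in size, with a median absolute difference of 0.07 against 0.08.

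The precision bounds what could have been missed at the probe sets read. The 7 members below the array medians, named further on, are at an unknown distance from background. Their narrow intervals need not bound a change in the transcript. Other probe sets can be less precise, as for Elovl5, with an SE of 0.39 on the other and 0.08 on the brightest. The median standard error (SE) of a member's difference was 0.10, the same as over all genes. For 37 of the 40 members the 95% interval of the difference lay within 1.5-fold in either direction, as it did for 90.5% of all genes. The 3 members with wider intervals were Fabp5, Cd36 and Agpat1. The lack of a call does not show that a gene was equal on both diets.

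**Figure D1:**
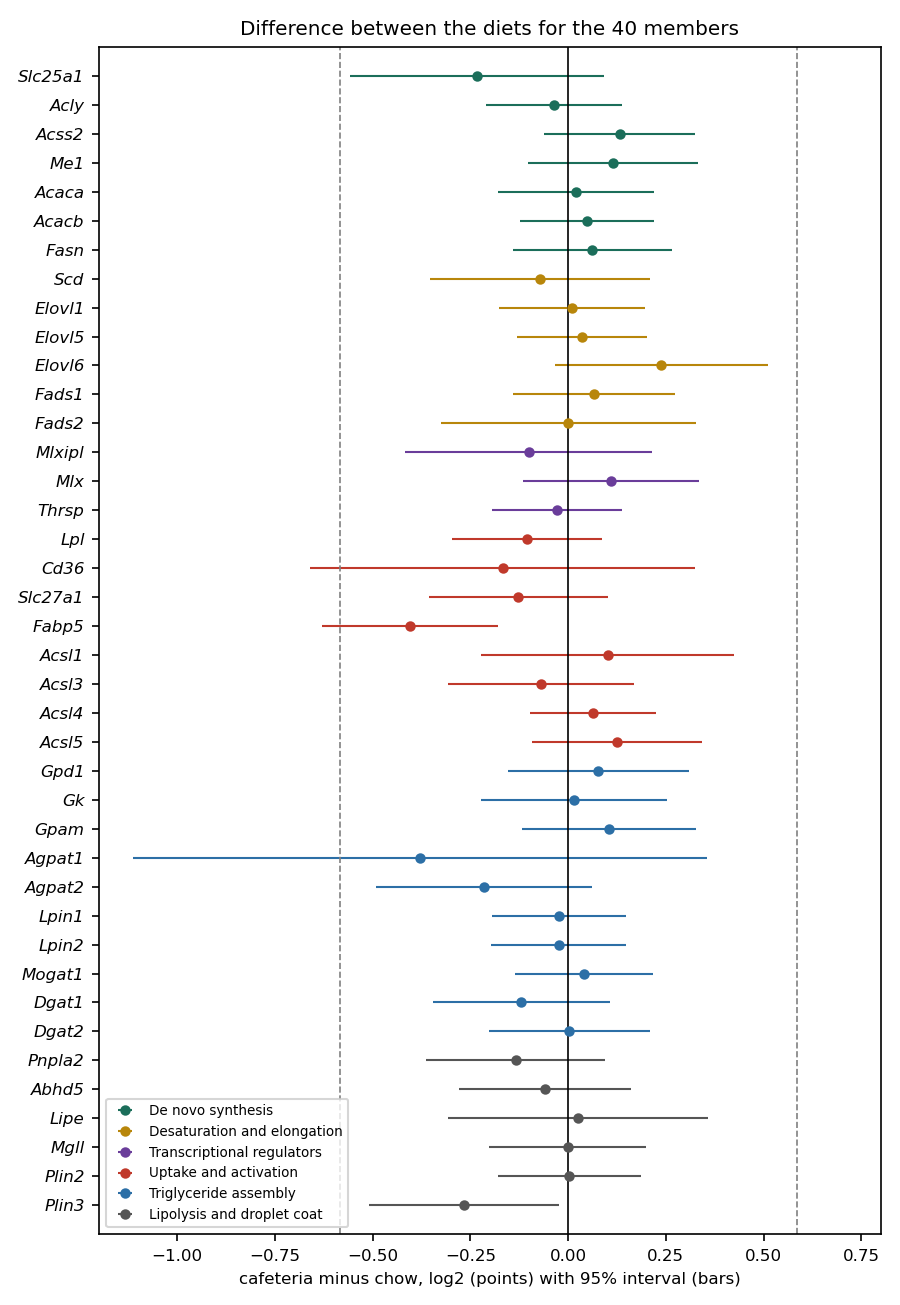
Cafeteria minus chow difference on the log2 scale (horizontal axis) for each of the 40 members, with the 95% interval as a bar and colours for the 6 steps; dashed lines mark 1.5-fold in either direction. Points scatter on both sides of 0, only the bars of Fabp5 and Plin3 miss 0, and only those of Fabp5, Cd36 and Agpat1 reach past a dashed line.

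Array medians lay between 5.28 and 5.32. RMA brings the arrays to a common level, so this closeness says nothing about the samples. Pairwise correlations ran between 0.979 and 0.994. Islet endocrine markers were bright, with a mean level over 12 markers of 12.22 to 12.50 on cafeteria arrays and 12.38 to 12.51 on chow arrays. RMA values have no true 0 and no detection call is given in the table used here, so an absent gene shows as a dim one. Of the 8 adipocyte markers 6 lay below the array medians, with list means of 4.71 to 4.96 on cafeteria arrays and 4.78 to 5.03 on chow arrays. Adipoq and Plin1, which define adipocytes, were dim on both diets. Adipoq read 4.79 to 5.04 on cafeteria arrays and 4.66 to 5.02 on chow arrays, and Plin1 read 4.0 to 4.38 on cafeteria arrays and 4.05 to 4.32 on chow arrays. The 2 brighter ones were Fabp4, at 6.89 to 7.75 on cafeteria arrays and 7.51 to 7.85 on chow arrays, and Aoc3. Aoc3 read 5.72 to 6.20 on cafeteria arrays and 6.14 to 6.86 on chow arrays, a difference of −0.44 that was the only one of the 8 with an unadjusted p under 0.05. Acinar markers varied most, at 5.45 to 7.32 on cafeteria arrays and 5.81 to 6.83 on chow arrays, and 12 of 13 had a difference above 0, with a median of 0.56. The largest was that of Prss2, at 1.02 (adjusted p = 0.844). As a score per array they differed by 0.50, which the exact test did not call (0.22 ± 0.77 in cafeteria and −0.28 ± 0.49 in chow, SD, n = 5 and 4, exact two-sided permutation p = 0.286). Cafeteria array 3 stood apart, holding the highest value of 19.8% and the lowest of 18.8% of all genes. It likewise held the highest value of 9 of the 40 members and the lowest of 6.

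**Figure D2:**
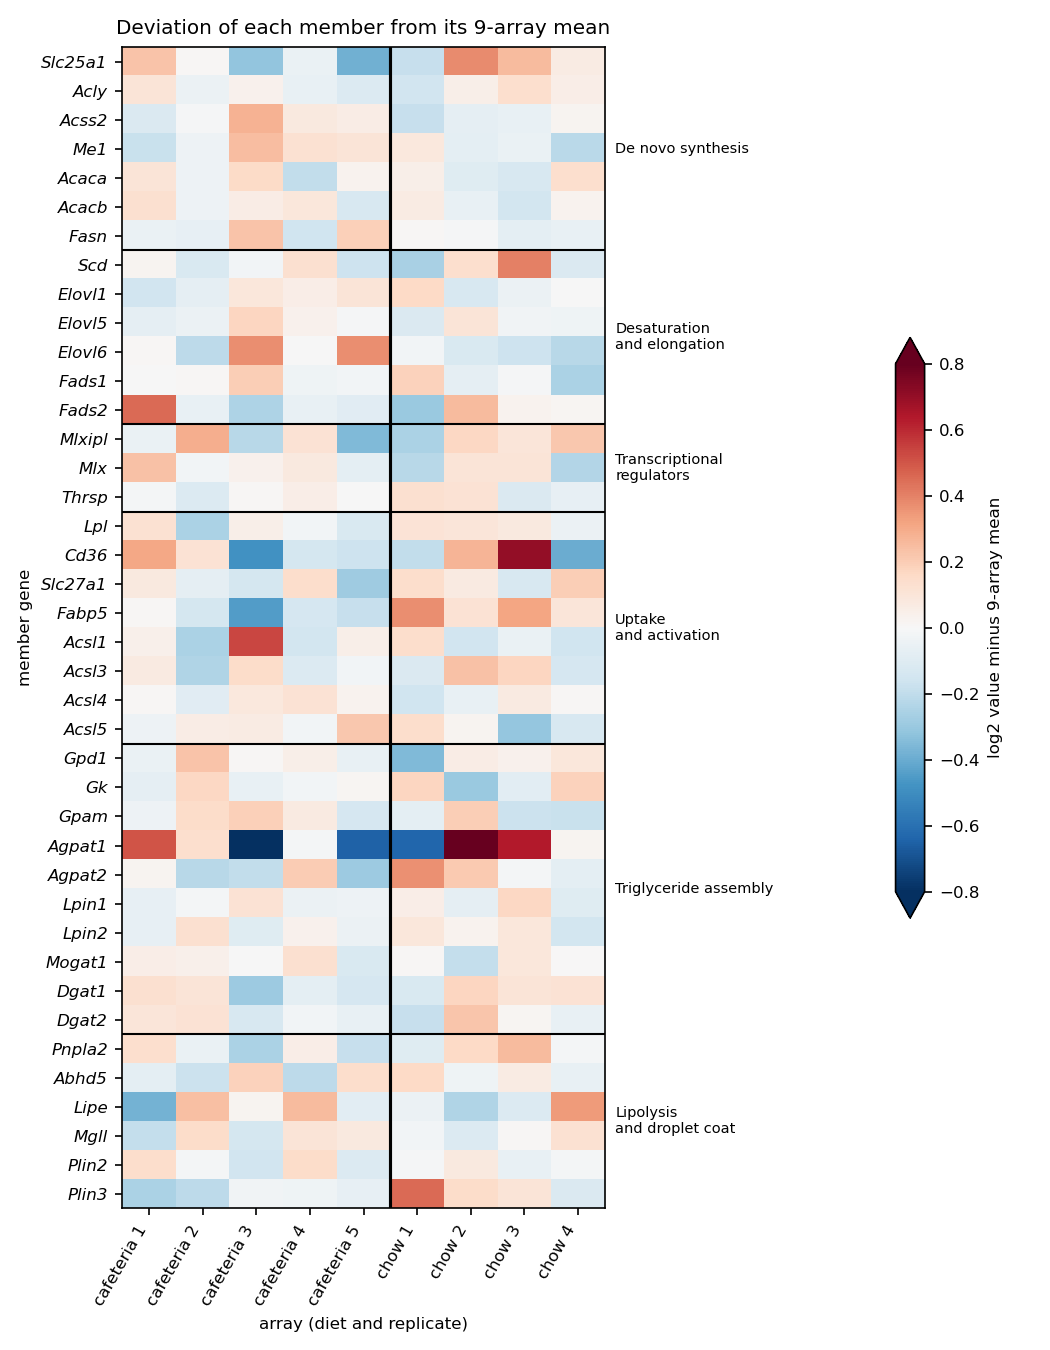
Log2 value of each member minus its own mean over the 9 arrays (colour, red above and blue below), with members as rows grouped by step and the 5 cafeteria arrays left of the 4 chow arrays. No block of rows separates the diets; the Agpat1 row has the strongest colours and the Thrsp row the faintest, and cafeteria 3 holds many of the extremes.

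De novo synthesis showed no called difference. Of its 7 members 5 had a difference above 0 and 2 below, with a median of 0.05. Those nearest to the threshold supply its inputs: Slc25a1, the mitochondrial citrate exporter, Acss2, which makes cytosolic acetyl-CoA from acetate, and Me1, the cytosolic malic enzyme that yields NADPH. Slc25a1 read 8.40, 8.18, 7.85, 8.12 and 7.79 on cafeteria arrays 1 to 5, against 7.99, 8.55, 8.43 and 8.24 on chow arrays 1 to 4. The groups overlapped, cafeteria 5 being the lowest and chow 2 the highest, and the difference was −0.23 (SE 0.15, adjusted p = 0.846), or −0.34 to −0.15 with 1 array left out. Acss2 read 8.09, 8.20, 8.49, 8.29 and 8.27 on cafeteria arrays, against 8.03, 8.14, 8.15 and 8.23 on chow arrays. Cafeteria 3 was the highest and the groups overlapped, with a difference of 0.13 (SE 0.09, adjusted p = 0.848). That value was 0.077 without cafeteria 3 and 0.022 without the 3 arrays of largest 3′ bias, described at the end. Me1 read 9.12, 9.25, 9.54, 9.42 and 9.40 on cafeteria arrays, against 9.38, 9.22, 9.25 and 9.08 on chow arrays. Here too cafeteria 3 was the highest, and the difference was 0.11 (SE 0.10, adjusted p = 0.867), or 0.065 to 0.17 with 1 array left out.

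At their brightest probe sets the committed enzymes of the pathway had differences near 0. Acaca, the acetyl-CoA carboxylase that makes malonyl-CoA for synthesis, read 7.93, 7.79, 7.98, 7.63 and 7.85 on cafeteria arrays, against 7.88, 7.73, 7.70 and 7.96 on chow arrays. Both the highest and the lowest value belonged to cafeteria arrays, and the difference was 0.02 (SE 0.09). A second, dimmer probe set of Acaca read 5.04, 4.87, 4.89, 5.01 and 4.49 on cafeteria arrays, against 4.55, 4.79, 4.57 and 4.65 on chow arrays. There 4 of 5 cafeteria arrays lay above every chow array, and the difference was 0.22 (SE 0.11, unadjusted p of 0.083), not called either. Fasn, fatty acid synthase, read 8.62, 8.61, 8.91, 8.51 and 8.87 on cafeteria arrays, against 8.69, 8.67, 8.60 and 8.62 on chow arrays. The chow arrays lay close together inside the cafeteria range, and the difference was 0.06 (SE 0.09, 95% interval −0.14 to 0.27). Acly, which cleaves citrate to acetyl-CoA and was bright on every array, differed by −0.04 (SE 0.08). The mitochondrial carboxylase Acacb, whose malonyl-CoA restrains fatty acid oxidation, was dim and differed by 0.05 (SE 0.08).

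The promoters of Slc25a1 and Acss2 are printed because these genes stand for the citrate and the acetate route to cytosolic acetyl-CoA and had the largest differences of this step, in opposite directions. They run 5′ to 3′ on the gene's strand, 250 bases before to 50 after the annotated start, from RefSeq (assembly GRCr8). Capitals mark CCAAT, the motif of NF-Y, and GGGCGG, the motif of Sp1, each on either strand (as ATTGG and CCGCCC on the other).
Slc25a1, chr11:96559804-96560103, plus strand: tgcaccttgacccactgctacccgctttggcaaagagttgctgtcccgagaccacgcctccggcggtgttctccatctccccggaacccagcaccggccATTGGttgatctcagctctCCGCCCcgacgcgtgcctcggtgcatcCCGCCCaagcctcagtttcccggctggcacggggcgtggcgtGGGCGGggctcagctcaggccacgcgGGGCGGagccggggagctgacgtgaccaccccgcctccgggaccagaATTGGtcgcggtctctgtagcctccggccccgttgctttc
Acss2, chr3:164464453-164464752, plus strand: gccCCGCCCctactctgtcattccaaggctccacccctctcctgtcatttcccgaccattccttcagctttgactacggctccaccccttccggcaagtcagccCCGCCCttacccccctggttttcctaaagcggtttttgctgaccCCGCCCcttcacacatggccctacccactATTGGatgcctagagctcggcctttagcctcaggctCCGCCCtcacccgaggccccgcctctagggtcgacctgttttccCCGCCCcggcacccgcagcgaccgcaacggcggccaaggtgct
Slc25a1 holds 2 CCAAT and 4 GGGCGG matches, and Acss2 holds 1 and 5. Neither window holds CACGTG, the E-box letters that ChREBP with its partner Mlx, or USF, can bind, nor TCACNCC, the core letters of a sterol regulatory element.

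Acaca, Fasn, Elovl6, Lpl, Fabp5, Gpd1, Dgat1, Dgat2 and Lipe had no promoter entry and were not searched, so the shares below leave them out. Over the 31 members with a promoter in that table, 20 (64.5%) held CCAAT, against 39.6% of 27457 genes and 38.6% of the 11700 that are also on the array. GGGCGG was in 17 members (54.8%), against 36.0% of all genes and 58.6% of those on the array. TCACNCC was in 7 (22.6%, against 15.8% and 16.8%), among them Mlxipl, Gpam, Lpin1 and Pnpla2. The palindrome CACGTG was in 4, Elovl5, Mgll, Mlx and Plin2 (12.9%, against 7.08% and 9.38%). Such matches are letters in a window and no sites, none of the 4 motifs contains another, and no test of these shares was made.

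In desaturation and elongation, 5 of 6 members had a difference above 0, with a median of 0.02 and no call. Elovl6, which elongates the palmitate made by fatty acid synthase, had the largest difference above 0 of all 40 members. Its values were 8.05, 7.83, 8.41, 8.04 and 8.41 on cafeteria arrays, against 8.02, 7.93, 7.88 and 7.82 on chow arrays. Cafeteria 3 and 5 stood above the rest and cafeteria 2 lay among the chow arrays, with a difference of 0.24 (SE 0.12, 95% interval −0.03 to 0.51, adjusted p = 0.844). Its other probe set read 6.80, 6.67, 6.94, 6.58 and 6.47 on cafeteria arrays, against 6.07, 6.46, 6.68 and 6.37 on chow arrays. It differed by 0.30 (SE 0.13, unadjusted p of 0.046 by limma), not called either. Whether Elovl6 had an unadjusted p under 0.05 thus depended on the probe set read. On that probe set cafeteria 5 was among the lower values, unlike on the first, and the groups overlapped on both. Without the 3 arrays of largest 3′ bias, the difference of the brightest probe set was 0.10.

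Scd, the stearoyl-CoA desaturase that makes oleate, was dim, reading 4.14, 4.0, 4.10, 4.25 and 3.96 on cafeteria arrays, against 3.86, 4.25, 4.52 and 4.01 on chow arrays. The chow arrays held both the highest and the lowest value, and the difference was −0.07 (SE 0.13). Fads1, the delta-5 desaturase of polyunsaturated fatty acids, read 8.40, 8.41, 8.60, 8.37 and 8.38 on cafeteria arrays, against 8.59, 8.33, 8.39 and 8.15 on chow arrays. Its difference was 0.07 (SE 0.09), with cafeteria 3 and chow 1 the highest. The delta-6 desaturase Fads2 differed by 0.00036 (SE 0.15), the elongase Elovl1 by 0.01 (SE 0.08) and Elovl5, an elongase of polyunsaturated chains, by 0.04 (SE 0.08).

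Among the transcriptional regulators, Mlxipl read 8.24, 8.58, 8.07, 8.41 and 7.93 on cafeteria arrays, against 8.03, 8.46, 8.38 and 8.50 on chow arrays. The lowest and the highest value were both on cafeteria arrays, and the difference was −0.10 (SE 0.14, 95% interval −0.42 to 0.21), or −0.20 to −0.023 with 1 array left out. Mlx, the partner with which ChREBP binds DNA, read 9.38, 9.12, 9.17, 9.22 and 9.06 on cafeteria arrays, against 8.92, 9.24, 9.25 and 8.91 on chow arrays. Chow 1 and chow 4 were the lowest, and the difference was 0.11 (SE 0.10, adjusted p = 0.875), with 0.17 on its other probe set (SE 0.10). With 1 array left out the first ran between 0.052 and 0.17. Thrsp, a lipogenic protein known in liver as Spot 14, was dim and the least variable member, at 4.18, 4.08, 4.20, 4.25 and 4.19 on cafeteria arrays, against 4.32, 4.31, 4.08 and 4.13 on chow arrays. Its difference was −0.03 (SE 0.08) and its whole range over the 9 arrays 0.24.

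Uptake and activation held the member with the smallest p. Fabp5, a cytosolic fatty acid binding protein, read 6.90, 6.75, 6.45, 6.76 and 6.71 on cafeteria arrays, against 7.27, 7.01, 7.21 and 6.99 on chow arrays. Every cafeteria array lay below every chow array, the only member with such a separation, which 0.837% of all genes showed in that direction and 2.17% in either. The means were 6.72 ± 0.17 in cafeteria and 7.12 ± 0.14 in chow (SD, n = 5 and 4), a difference of −0.40 (SE 0.10, 95% interval −0.63 to −0.18), or 0.755-fold. Its unadjusted p was 0.0023 and its adjusted p 0.844, so it was not called, and 27 genes had a smaller p. The difference was −0.34 without cafeteria 3 and −0.27 without the 3 arrays of largest 3′ bias. In whole islets, fewer cells of a type and less RNA per cell cannot be told apart. Fabp5 is also made by macrophages and endothelial cells. Of 11 macrophage markers 9 had a difference below 0, with list means of 5.24 to 5.66 on cafeteria arrays and 5.50 to 5.74 on chow arrays, and of 8 endothelial markers 6 did, with 7.61 to 7.99 on cafeteria arrays and 7.81 to 8.0 on chow arrays. Lymphocyte markers were below 0 for 10 of 10, with a median difference of −0.51, and 9 of the 10 lay below the array medians. Their list means were 4.43 to 4.56 on cafeteria arrays and 4.53 to 5.95 on chow arrays. The 5.95 was that of chow 3, and the other chow arrays had list means of 4.53 to 4.78. Of the 10, Lck and Cd79b had separate groups. In the other lists, the difference was below 0 for 9 of 12 islet endocrine, 4 of 6 ductal and 5 of 8 adipocyte markers. It was so for 4 of 8 stellate cell and fibroblast markers and 1 of 13 acinar markers, against 49.2% of all genes. The part of these markers in the Fabp5 difference was not tested.

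**Figure D3:**
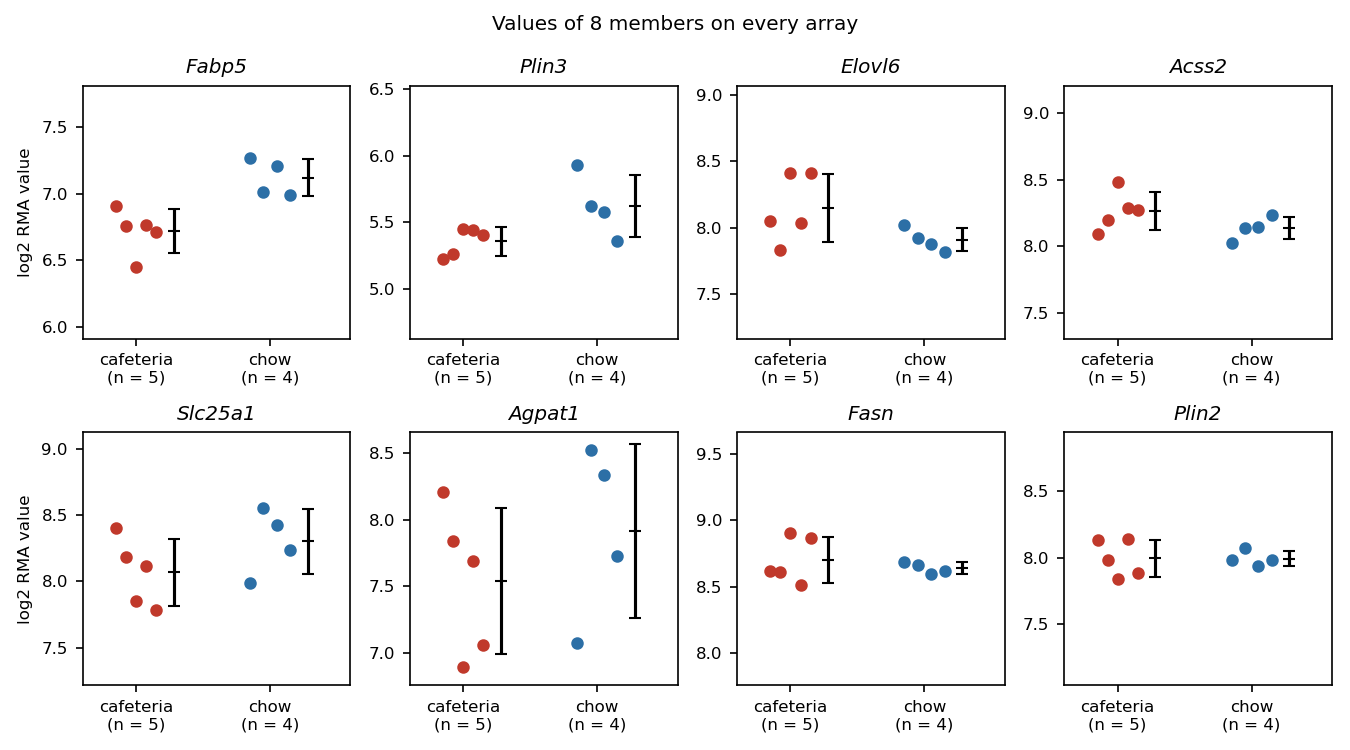
Log2 RMA value (vertical axes, every panel spanning the same range of log2 units) of 8 members on the 5 cafeteria and the 4 chow arrays, 1 point per array, with the mean and SD as a bar beside them. Fabp5 is the only one with the groups apart; for Plin3 only chow 4 reaches the cafeteria arrays, while Fasn and Plin2 overlap throughout.

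Cd36, the scavenger receptor that takes up long-chain fatty acids, read 6.15, 5.95, 5.35, 5.70 and 5.67 on cafeteria arrays, against 5.64, 6.11, 6.54 and 5.44 on chow arrays. It ranged over 1.19 on the log2 scale, and its difference of −0.17 (SE 0.22, 95% interval −0.66 to 0.33) was 0.035 without chow 3, the highest array. Chow 3 was also highest in the lymphocyte markers, with the list mean of 5.95 given above, and in the macrophage markers. Slc27a1, a fatty acid transport protein, read 8.02, 7.87, 7.80, 8.09 and 7.66 on cafeteria arrays, against 8.09, 8.02, 7.82 and 8.14 on chow arrays. The groups overlapped and the difference was −0.13 (SE 0.10, adjusted p = 0.860), but 0.00087 without the 3 arrays of largest 3′ bias. Lpl, which frees fatty acids from circulating lipoproteins, differed by −0.10 (SE 0.09).

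The acyl-CoA synthetases, which activate fatty acids by joining them to coenzyme A, pointed both ways. Acsl5 read 9.18, 9.28, 9.28, 9.20 and 9.43 on cafeteria arrays, against 9.36, 9.24, 8.91 and 9.09 on chow arrays. Chow 3 was the lowest and cafeteria 5 the highest, and the difference was 0.12 (SE 0.10, adjusted p = 0.859), or 0.044 without chow 3. The differences were 0.10 for Acsl1 (SE 0.15), 0.06 for Acsl4 (SE 0.07) and −0.07 for Acsl3 (SE 0.11). Over the 8 members of uptake and activation, 3 had a difference above 0 and 5 below, with a median of −0.09.

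Triglyceride assembly was evenly split, 5 of its 10 members above 0 and 5 below, with a median of −0.0098. Agpat1 and Agpat2 acylate lysophosphatidic acid to phosphatidic acid. Agpat1 was the most variable of the 40 members, at 8.21, 7.84, 6.89, 7.69 and 7.06 on cafeteria arrays, against 7.07, 8.52, 8.34 and 7.72 on chow arrays. Cafeteria 3, cafeteria 5 and chow 1 were low, each group spread over more than 1 on the log2 scale, and the difference of −0.38 had an SE of 0.33 (95% interval −1.11 to 0.36, adjusted p = 0.871). With 1 array left out it ran between −0.66 and −0.18. Its other probe set followed the same arrays, with 7.84, 7.44, 6.27, 7.39 and 7.05 on cafeteria arrays, against 6.85, 8.10, 7.91 and 7.62 on chow arrays, and differed by −0.42 (SE 0.32). Agpat2 read 5.45, 5.20, 5.23, 5.63 and 5.13 on cafeteria arrays, against 5.79, 5.63, 5.41 and 5.34 on chow arrays. The groups overlapped, with a difference of −0.22 (SE 0.13, adjusted p = 0.844), which was −0.13 without chow 1 and −0.035 without the 3 arrays of largest 3′ bias. With the acinar score as a covariate in limma it was −0.32 (SE 0.11, unadjusted p of 0.019, adjusted p = 0.901). In that fit 3 members, Fabp5, Agpat2 and Plin3, had an unadjusted p under 0.05, against 5.94% of all genes.

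The last step of assembly is made by the acyltransferases Dgat1 and Dgat2. Dgat1 read 7.96, 7.94, 7.54, 7.75 and 7.70 on cafeteria arrays, against 7.71, 8.0, 7.93 and 7.95 on chow arrays, a difference of −0.12 (SE 0.10, adjusted p = 0.868) that ran between −0.18 and −0.061 with 1 array left out. Dgat2 read 5.26, 5.27, 5.03, 5.14 and 5.10 on cafeteria arrays, against 4.97, 5.38, 5.18 and 5.10 on chow arrays, a difference of 0.0034 (SE 0.09). Cafeteria 3 and 5 were the lowest for Dgat1, and for Dgat2 every cafeteria value lay inside the chow range. Glycerol phosphate comes from Gpd1, which reduces a glycolytic intermediate and differed by 0.08 (SE 0.10), and from glycerol kinase, Gk, which was dim and differed by 0.01 (SE 0.11). Gpam, the mitochondrial acyltransferase of the first acylation, differed by 0.10 (SE 0.10), Mogat1, a monoacylglycerol acyltransferase, by 0.04 (SE 0.08), and the phosphatidic acid phosphatases Lpin1 and Lpin2 by −0.02 each (SE 0.08 each).

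In lipolysis and the droplet coat, 4 of 6 members had a difference below 0, with a median of −0.03. Plin3, a perilipin that coats nascent lipid droplets, read 5.22, 5.26, 5.45, 5.44 and 5.41 on cafeteria arrays, against 5.93, 5.62, 5.57 and 5.36 on chow arrays. Of the chow arrays 3 lay above every cafeteria array, while chow 4 fell among them. The means were 5.35 ± 0.11 in cafeteria and 5.62 ± 0.24 in chow (SD, n = 5 and 4), a difference of −0.27 (SE 0.11, 95% interval −0.51 to −0.02), or 0.832-fold. With an unadjusted p of 0.035 and an adjusted p of 0.844 it was not called, and without chow 1 the difference was −0.16 (SE 0.09). The unadjusted p of Plin3 was not under 0.05 with a repeated quantile normalization or array weights. Nor was it without cafeteria 1, cafeteria 2, chow 1, chow 2 or chow 3, or without the 3 arrays of largest 3′ bias. Its promoter is printed because it is, of the 2 members with an unadjusted p under 0.05, the one in the promoter table. It is shown as above, with TCACNCC in capitals too.
Plin3, chr9:1210163-1210462, minus strand: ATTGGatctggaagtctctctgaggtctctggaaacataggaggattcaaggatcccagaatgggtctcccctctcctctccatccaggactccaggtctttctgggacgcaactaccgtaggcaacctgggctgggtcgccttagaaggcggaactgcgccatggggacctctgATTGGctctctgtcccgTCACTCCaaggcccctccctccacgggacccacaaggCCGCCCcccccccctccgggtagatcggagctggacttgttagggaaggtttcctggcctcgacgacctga
It holds 2 CCAAT, 1 TCACNCC and 1 GGGCGG match and no CACGTG.

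The other coat protein, Plin2, which follows the amount of stored lipid in many cells, read 8.13, 7.98, 7.84, 8.15 and 7.89 on cafeteria arrays, against 7.99, 8.07, 7.94 and 7.98 on chow arrays. The chow arrays sat inside the cafeteria range, and the difference was 0.0033 (SE 0.08, 95% interval −0.18 to 0.19). Pnpla2, the adipose triglyceride lipase that starts lipolysis, read 7.43, 7.24, 7.04, 7.34 and 7.10 on cafeteria arrays, against 7.20, 7.45, 7.54 and 7.27 on chow arrays. The groups overlapped and the difference was −0.13 (SE 0.10, adjusted p = 0.859). Abhd5, its coactivator, read 7.02, 6.92, 7.28, 6.88 and 7.24 on cafeteria arrays, against 7.25, 7.06, 7.16 and 7.03 on chow arrays, a difference of −0.06 (SE 0.10). Lipe, hormone-sensitive lipase, differed by 0.02 (SE 0.15), and Mgll, which cleaves monoacylglycerol, by −0.0012 (SE 0.09).

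Some members rest on dim or discordant probe sets. The mean of 7 members over the 9 arrays (Acacb, Scd, Thrsp, Gk, Gpam, Mogat1 and Dgat2) lay below the array medians. Another 24 single-gene probe sets covered 20 of the members, and 14 of them had a difference of the opposite sign to the brightest one. For Mgll all 3 other probe sets did so and for Acsl1 both, at differences no larger than 0.14. The probe sets of Me1, Acaca, Elovl6, Mlx, Acsl5, Gpam, Agpat1, Lpin1 and Plin2 had the same sign throughout.

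Several members had their extreme values on the arrays with the largest 3′ bias, on both diets. The difference between the 3′ and 5′ control probe sets of actin and Gapdh, which grows as RNA is degraded or shortened in labelling, averaged 1.51 ± 0.24 in cafeteria and 1.56 ± 0.16 in chow (SD, n = 5 and 4, exact two-sided permutation p = 0.746). It was largest on chow 1, cafeteria 3 and cafeteria 5, at 1.80, 1.74 and 1.73, against 1.21 to 1.53 on the other 6 arrays. These 3 arrays, picked out after the values were seen, held the 3 lowest values of 6 members: Slc25a1, Fads2, Mlxipl, Agpat1, Dgat1 and Pnpla2. That is 15.0% of the members, against 7.08% of all genes. They held the 3 highest values of 5 members, Fasn, Elovl1, Acsl1, Acsl5 and Abhd5 (12.5%, against 8.0%). With this measure as a covariate, 5 members had an unadjusted p under 0.05, against 13.5% of all genes. They were Slc25a1 (−0.28), Elovl6 (0.27), Fabp5 (−0.42), Agpat1 (−0.50) and Plin3 (−0.24). Again 0 passed the adjusted test, and the smallest adjusted p of a member was 0.332.

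**Figure D4:**
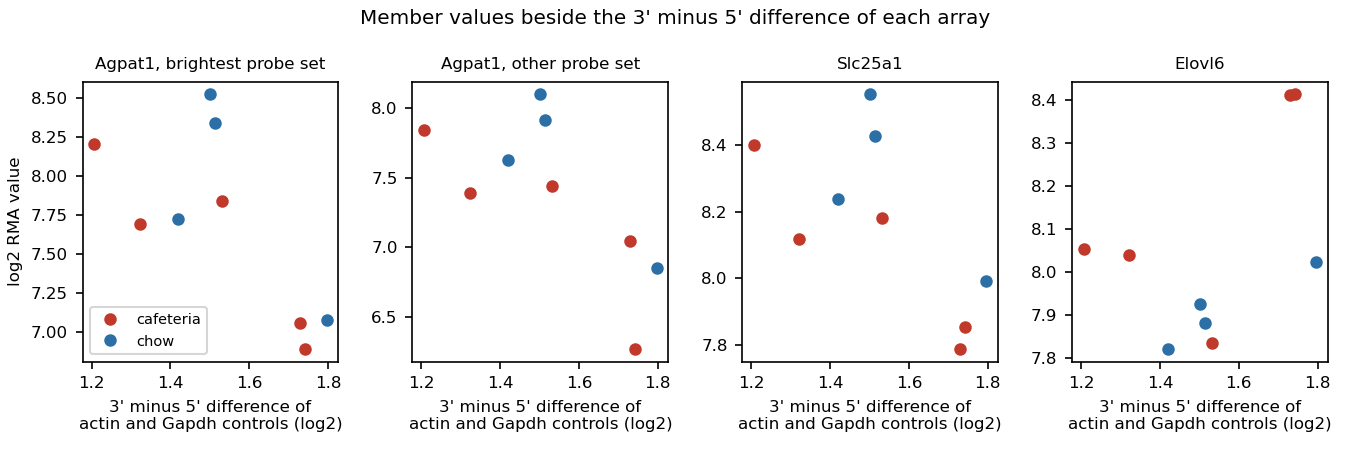
Log2 RMA value of Agpat1 (brightest and other probe set), Slc25a1 and Elovl6 (vertical axes) against the 3′ minus 5′ difference of each array's actin and Gapdh controls on the log2 scale (horizontal axis), 1 point per array. The 3 arrays at the right, cafeteria 3, cafeteria 5 and chow 1, hold the lowest values of Agpat1 and Slc25a1 on either diet; Elovl6 is highest on cafeteria 3 and 5.

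Further genes of lipid metabolism that are no members gave a like picture. Of 81 listed genes 73 were measured, and 0 passed the adjusted test. Their differences had a median of 0.0021, with 38 above 0 and 35 below. Of the 73, 4 had an unadjusted p under 0.05, a level that 6.7% of all genes reached, so this count is near the background. Fitm2, which promotes droplet budding, differed by 0.42 (SE 0.13), the mitochondrial malic enzyme Me2 by 0.25 (SE 0.08), cytosolic malate dehydrogenase Mdh1 by 0.19 (SE 0.08) and the mitochondrial acetyl-CoA synthetase Acss1 by −0.41 (SE 0.13, adjusted p = 0.844, as for the other 3). Only Me2 had separate groups, which 2.17% of all genes had in either direction. It read 7.25, 7.28, 7.46, 7.34 and 7.40 on cafeteria arrays, against 7.23, 7.14, 6.92 and 7.10 on chow arrays, while a second probe set of Me2 pointed the other way. Srebf1, which encodes the sterol-regulated activator of lipogenic genes, differed by 0.05 (SE 0.07), the adipogenic receptor gene Pparg by 0.04 (SE 0.10) and Angptl4, an inhibitor of lipoprotein lipase, by −0.12 (SE 0.21).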

How the data were processed

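Pancreatic islets of Wistar rats were profiled on 1-colour Affymetrix arrays, with 5 cafeteria and 4 chow samples grouped by their diet labels. The deposited table holds log2 values per probe set. RMA, a method that corrects background, quantile-normalizes the arrays and summarises probes on the log2 scale, is taken as their origin, since R 2.7.0, affy 2.0.1 and RMA are the tools in the submitters' processing notes. No counts or detection calls were used. The spread between the arrays and their number set the precision. Of 31099 probe sets 57 controls were left out and 31042 tested. The platform annotation gave 1 gene for 20826, several for 436 and none listed for 9780, and the gene IDs of 20758 matched the RefSeq gene table. The brightest single-gene probe set stood for each of 14217 genes. Diets were compared with limma 3.58.1 (R 4.3.3, lmFit and eBayes, two-sided, Benjamini-Hochberg over all tested probe sets, adjusted p threshold 0.05), with no covariate. On simulated arrays of this design with 31042 probe sets the fit recovered 48 of 67 planted 1.5-fold, 62 of 67 planted 2-fold and 63 of 66 planted 3-fold differences. All were planted together, with noise drawn independently for each probe set, and 175 probe sets were called. Many calls make the adjusted threshold easier to pass, and real arrays share noise between genes. These shares are therefore no estimate of what the real data, with 0 calls, could have shown.

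The members, marker lists and the list of other lipid genes were chosen with earlier results of these data known. Every member is given with its difference. Values of every array are given for the 3 members of each step with the smallest unadjusted p, for members with separate groups, and for Acaca, Fasn, Scd, Mlxipl, Cd36, Dgat2 and Plin2. Of the other lipid genes those with an unadjusted p under 0.05 are named, with Srebf1, Pparg and Angptl4. Array scores were compared by exact permutation over the 126 splits of the arrays, with the smaller one-sided p doubled. A one-sided p cannot fall below 0.0079, so the two-sided p given here has a floor above that. Promoters were searched on both strands for fixed letters, in windows of 300 bases, without a test. Alternatives were 2 other normalizations, a filter on dim probe sets, another variance model, array weights, a covariate (RNA quality or the acinar score), 2 other choices of probe set, and each array left out. Leaving out the 3 arrays of largest 3′ bias was added after seeing the data. No 2 arrays held identical values.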

Additional observations from a re-analysis of the deposited data

Results flagged for a closer look

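Within the diet groups, 4 of 80 combinations of member and diet had 1 array far from the others by Dixon's test at the 95% level, which chance alone gives in about 1 of 20. Fads1 read 8.60 on cafeteria 3, where the next highest cafeteria array read 8.41. Fads2 read 7.25 on cafeteria 1, with 6.73 the next highest cafeteria value. Lpin1 read 7.75 on cafeteria 3, next to 7.62. Gpd1 read 4.96 on chow 1, where the other chow arrays read 5.34 to 5.40. No member with an unadjusted p under 0.05 was among them.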

How the results depend on the processing

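No alternative of the 19 gave a member or any other feature it fitted an adjusted p under 0.05. Of these, 17 fitted all 31042 probe sets, the filter on dim ones 15521 and the median per gene 14217. The smallest adjusted p was 0.0578, without chow 2. The number of members with separate groups was 1 to 2 when 1 array was left out. It was 2 without cafeteria 2, adding Elovl6, where 4.15% of all genes were separate, and without chow 4, adding Plin3, where 4.42% were, and 2 without the 3 arrays of largest 3′ bias, where Abhd5 joined Fabp5 and 12.0% of all genes were separate. Fewer arrays make separation easier. The direction of 17 members held in every setting that fitted them (Acsl3, Acsl4, Acsl5, Acss2, Agpat1, Agpat2, Dgat1, Elovl6, Fabp5, Gpam, Lpl, Me1, Mlx, Mlxipl, Plin3, Pnpla2 and Slc25a1; Gpam was not fitted under the filter on dim probe sets), and 23 turned in at least 1, none of them called. With 1 array left out, the median difference of the members ran between −0.019 and 0.00086, that of the regulators between −0.073 and 0.0076, of uptake and activation between −0.12 and 0.0054 and of triglyceride assembly between −0.038 and 0.015. Single differences ran for Acly −0.095 to 0.00027, Acaca −0.020 to 0.071, Scd −0.17 to 0.049, Elovl1 −0.033 to 0.063, Elovl5 −0.0041 to 0.076, Fads1 −0.0053 to 0.14, Fads2 −0.11 to 0.084, Thrsp −0.073 to 0.0076, Cd36 −0.33 to 0.035, Acsl1 −0.022 to 0.18, Gpd1 −0.026 to 0.12, Gk −0.083 to 0.078, Lpin1 −0.060 to 0.029, Lpin2 −0.079 to 0.00074, Mogat1 −0.016 to 0.078, Dgat2 −0.058 to 0.079, Lipe −0.050 to 0.14, Mgll −0.038 to 0.046 and Plin2 −0.034 to 0.043. Differences moved by over 1.5 times, with no turn, for Acacb (0.0091 to 0.085), Fasn (0.011 to 0.11), Lpl (−0.15 to −0.053), Slc27a1 (−0.19 to −0.070), Acsl3 (−0.13 to −0.0043), Acsl4 (0.022 to 0.099), Gpam (0.064 to 0.19), Pnpla2 (−0.19 to −0.075) and Abhd5 (−0.11 to −0.014). The same held for Slc25a1, Acss2, Me1, Mlxipl, Mlx, Acsl5, Agpat1, Agpat2, Dgat1 and Plin3, whose values with 1 array left out are given above. Median centring turned Mgll (0.0078), and a repeated quantile normalization turned Acly (0.014) and Mgll (0.013). Array weights turned Acaca (−0.043), Fads2 (−0.041), Thrsp (0.0045), Lpin2 (0.013), Dgat2 (−0.0070) and Mgll (0.032). The acinar covariate turned Acacb (−0.0048), Fads2 (−0.0063), Dgat2 (−0.0055), Mgll (0.047) and Plin2 (−0.032), and the RNA quality covariate Fads2 (−0.048), Dgat2 (−0.016), Mgll (0.00048) and Plin2 (−0.019). The median of a gene's probe sets turned Elovl5 (−0.067), Thrsp (0.0025), Acsl1 (−0.024), Gk (−0.0056), Lpin2 (0.017), Dgat2 (−0.012), Abhd5 (0.026), Lipe (−0.022) and Mgll (0.072). The dimmest probe set turned Fasn (−0.011), Elovl5 (−0.17), Acsl1 (−0.0054), Gpd1 (−0.077), Gk (−0.025), Lpin2 (0.059), Dgat2 (−0.027), Abhd5 (0.11), Lipe (−0.070) and Mgll (0.062). Without the 3 arrays of largest 3′ bias Acaca (−0.015), Fasn (−0.045), Elovl5 (−0.040), Slc27a1 (0.00087), Lpin2 (0.042) and Mgll (0.012) turned. The cause of these turns was not tested. The filter on dim probe sets left 33 members. No paired analysis was possible because the labels give no number that the cafeteria and chow samples share. For 7 members the mean lay below the array medians, and without detection calls their distance from background is not known.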
